A study of Arabidopsis thaliana with 19 samples.

Results

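The comparison set xylem cells against subepidermal cells of the Arabidopsis thaliana shoot apex, across all genes read by the ATH1 array. It covered 12976 of the 22746 probe sets that are not controls, namely those called present on every array of at least 1 of the 2 populations, on 6 of the 19 arrays in the series. Each population was isolated from dissociated shoot apices by sorting the protoplasts that glowed from a fluorescent reporter under a tissue-specific promoter. The 3 xylem arrays came from the AtHB8 reporter, labelled xylem in the stem, and the 3 subepidermal arrays from the HDG4 reporter, labelled subepidermal. Both groups carried the ap1-1 and cal1-1 mutations, which turn flowers into masses of inflorescence meristems, and both were taken at 28 days. The arm used here has no wild-type and no unsorted group, and the sorting gates are not given in the sources used here. RNA went through 2 rounds of amplification before labelling. The other reporters were S17 (phloem, 3 arrays), LAS (adaxial organ boundary, 2 arrays), KAN1 (organ circumference), and HMG and AtML1 (epidermis). They are used below to place the xylem and subepidermal levels. Their arrays also enter the fit, where they share the estimate of the spread behind the standard errors and p-values.

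Xylem conducts water and begins in the shoot as procambium, dividing cells that auxin specifies and that a set of HD-ZIP III transcription factors and receptor kinases keep in order. Cells that leave the procambium for the xylem switch on VND-type NAC factors, build a cellulose, xylan and lignin secondary wall, and then die. The subepidermis is the second cell layer of the apex, under the epidermis, and in the meristem and young organs its cells divide and take part in organ initiation and boundary formation.

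Levels are given as MAS5 signal, an intensity that the authors scaled so that the trimmed mean of each array is 500. Differences are AtHB8 minus HDG4 on the scale of log2(signal + 1) with their standard error, so a positive value is higher in xylem cells. A probe set was called when the Benjamini-Hochberg adjusted p from limma was under 0.05 and the difference was at least 2-fold. Statements that arrays of both populations do not overlap describe named genes, and the share over all tested probe sets is not given. Where the dimmer population was called absent on all its arrays its level is only a ceiling, and the ratio is given as at least N-fold, against the higher of its own signal and the lowest signal called present, taken array by array and with both populations averaged over log2 signals, so it can differ from the ratio of mean signals. Leaving out single arrays moved 3 of 74 such limits by over 1.5 times (LOG3, ANL2 and TEL2, named below), while the fitted log2 values beside them depend on the pseudocount. Where fewer arrays of the dimmer population were called absent, the fitted ratio is given, and it too can rest on signals near the floor. VH1, PXY, VND2 and PIN6 had no HDG4 array called present. YUC4 read 14.1 and 6.91 on AtHB8 arrays whose lowest signals called present were 29.2 and 35.4. The samples are bulk populations, so fewer cells of a type and less RNA per cell cannot be told apart. Nothing in the labels ties the replicates to separate plants or sorts, and the p-values reflect the spread between arrays alone, which may be technical.

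The reporter's own gene was high in the AtHB8 cells, which were sorted on this reporter. Its level checked the sort and not whether the cells were xylem. ATHB8 (AT4G32880), the HD-ZIP III factor of procambium and early xylem, had signals of 9063, 10473 and 8374 on the AtHB8 arrays, against 85.3, 65.9 and 11.8 on the HDG4 arrays. It was absent on every HDG4 array, which made it at least 162-fold higher in xylem cells (log2 difference 7.79 ± 0.59, limma adjusted p = 5.21e-08), and the difference was 6.93 without HDG4 replicate 4. The HDG4 gene could not check the sort of the HDG4 cells in this way. It read 56.2, 39.2 and 31.3 on the AtHB8 arrays and 35.6, 67.6 and 45.2 on the HDG4 arrays, and it was called absent on all 19 arrays of the series.

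Marker levels described both populations but did not check the subepidermal label, whose only marker was the HDG4 gene. The 4 meristem markers summed to 3580 to 3910 on the AtHB8 arrays and 7276 to 8571 on the HDG4 arrays. On the LAS arrays they summed to 6847 to 7358. Summed over 11 xylem and procambium markers, the signal lay between 28319 and 31349 on the AtHB8 arrays and between 380 and 677 on the HDG4 arrays, where 7 of the 11 were absent throughout. The 7 epidermal markers summed to 932 to 1066 on the AtHB8 arrays and 3346 to 4244 on the HDG4 arrays, against 67159 to 75273 on the AtML1 arrays of the epidermis itself. The 4 photosynthetic markers summed to 5275 to 5644 on the AtHB8 arrays and 1365 to 2492 on the HDG4 arrays. The 8 phloem markers summed to 4502 to 6366 on the AtHB8 arrays and 2299 to 4801 on the HDG4 arrays, against 44364 to 52346 on the S17 arrays. On the AtHB8 arrays BAM3, at a mean of 4643, was by far the largest of them. Phloem APL, SEOR1, SEOR2 and SWEET12 were absent on every AtHB8 array, and SWEET12 on every HDG4 array. Arrays of one reporter correlated at a median r of 0.938 within AtHB8 and 0.933 within HDG4 over log2 signals, against 0.851 over the 9 AtHB8 and HDG4 pairs. The 3′ to 5′ signal ratio of actin, a measure of RNA length after amplification, was 10.1, 12.9 and 12.0 on the AtHB8 arrays and 7.31, 11.4 and 16.2 on the HDG4 arrays, so the ranges overlapped.

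Xylem and subepidermal cells differed widely. Of the 12976 probe sets tested, 2206 (17%) were higher and 2044 (15.8%) lower in AtHB8 cells, 32.8% in either direction. The test needs a gene to be present in at least 1 population, and genes that entered through a single population were called more often. Of the 1365 probe sets present on all arrays of AtHB8 only, 71.1% were higher there, and of the 849 present on all arrays of HDG4 only, 55.1% were lower in AtHB8 cells. Among the 10762 present on all arrays of both, 11.5% were higher and 14.6% lower. For each list of genes below, the number that was measurable in both populations is therefore given, and the share called can be read against these backgrounds. The median difference was −0.06 over the 21021 loci with a probe set of their own.

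**Figure D1:**
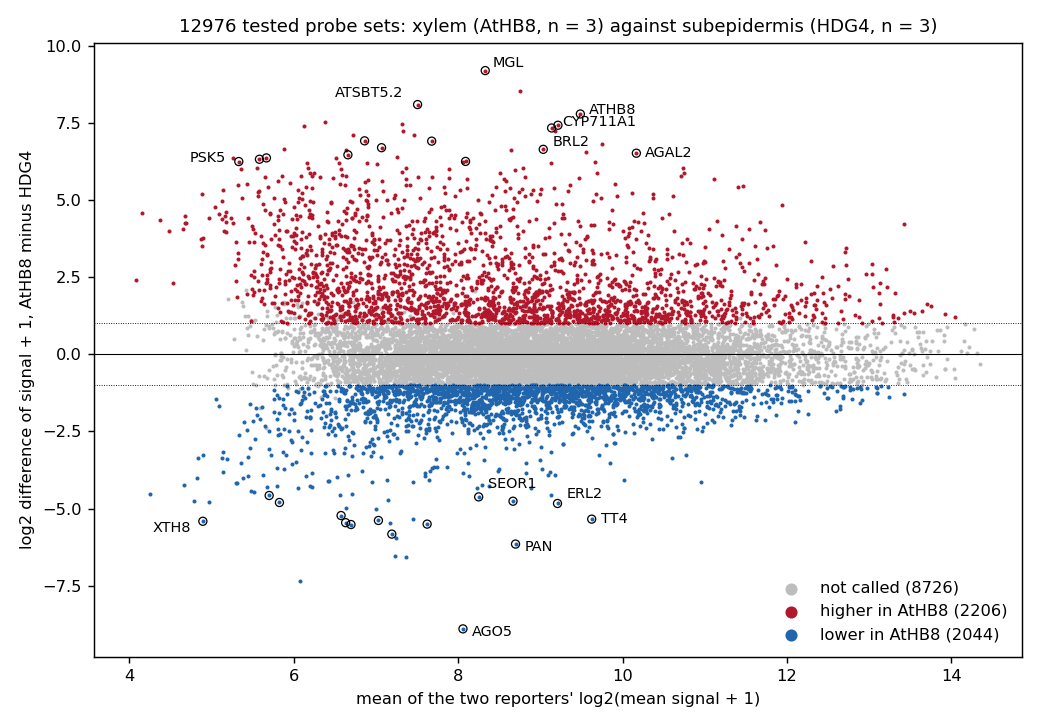
Difference in log2(signal + 1), AtHB8 minus HDG4, against the mean log2 level of both populations for the 12976 probe sets tested; coloured points passed the test, dotted lines mark a 2-fold difference and circles mark the 30 named genes with the largest differences. The called points lie on both sides of 0, 2206 above and 2044 below.

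Among the genes with the largest differences, those higher in xylem cells included a strigolactone synthesis gene and a receptor kinase gene of provascular cells. CYP711A1 (AT2G26170), also known as MAX1, which makes a precursor of strigolactone, had 7541, 7621 and 5984 in AtHB8 cells, against 53.0, 28.5 and 50.5 in HDG4 cells. It was 161-fold higher (7.33 ± 0.28, limma adjusted p = 7.81e-11), and the S17 phloem arrays averaged 3916. VH1 (AT2G01950), also called BRL2, a leucine-rich repeat receptor kinase of provascular cells, had 4276, 5688 and 5443 in AtHB8 cells, against 45.7, 76.1 and 36.0 in HDG4 cells, a 99.8-fold difference. AGAL2, an alpha-galactosidase, was measured in both populations, at 10861, 10813 and 11095 in AtHB8 cells and 135, 133 and 92.1 in HDG4 cells, which was 91.5-fold higher. Every gene named for its large difference was required to have arrays that do not overlap between the populations.

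The other genes of this group were absent on every HDG4 array, so only a lower limit of the ratio is known. MGL, a methionine gamma-lyase, read 6138, 9804 and 6298 in AtHB8 cells, against 7.81, 23.2 and 7.87 in HDG4 cells, at least 252-fold higher. JR1, a jasmonate-responsive lectin gene, was at least 143-fold higher, ATSBT5.2, a subtilase, at least 63.6-fold, and ZIP6, of the zinc transporter family, at least 57.9-fold. NIP5;1, a boric acid channel, read 2194, 3054 and 1383 in AtHB8 cells and 63.7, 17.7 and 16.4 in HDG4 cells, at least 51.1-fold higher. PID2, an AGC kinase related to PINOID, was at least 41.0-fold higher. LHT7, TGA7, GolS1, HB18 and PSK5 completed the group, with lower limits of 34.3, 27.2, 15.6, 14.6 and 12.0-fold. Several of these were as high or higher in phloem cells: the S17 arrays averaged 9807 for JR1, 3063 for ATSBT5.2 and 3803 for ZIP6.

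The genes furthest in the other direction included regulators of meristem and organ identity. AGO5 (AT2G27880), an Argonaute protein that binds small RNAs, had 5.07, 7.61 and 24.4 in AtHB8 cells, against 5007, 6526 and 4433 in HDG4 cells. It was absent on every AtHB8 array and at least 183-fold lower there (−8.90 ± 0.58, limma adjusted p = 1.05e-08), with −9.51 without AtHB8 replicate 3. PAN (AT1G68640), the bZIP factor PERIANTHIA that acts in floral meristems, had 38.7, 65.0 and 42.0 in AtHB8 cells, against 4272, 3261 and 2909 in HDG4 cells, at least 71.1-fold lower (−6.15 ± 0.20, adjusted p = 3.05e-11). The same condition, no overlap between the groups, had applied to both genes. AGO5 was also high on the HMG arrays, at a mean of 3529, but averaged 672 on the AtML1 arrays and 174 on the LAS arrays.

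ERL2 (AT5G07180), a receptor kinase of the ERECTA family, read 111, 112 and 104 in AtHB8 cells, against 3491, 3580 and 2479 in HDG4 cells, at least 28.6-fold lower. CLE17, which encodes a signalling peptide of the CLAVATA3 family, was at least 28.5-fold lower, and ANL2, an HD-ZIP IV factor related to ATML1, at least 24.3-fold lower (38.5-fold without HDG4 replicate 4). TEL2, a homologue of the maize gene terminal ear1, was at least 20.9-fold lower (32.0-fold without HDG4 replicate 4). TT4 (AT5G13930), chalcone synthase, the entry enzyme of flavonoid synthesis, read 285, 124 and 21.7 in AtHB8 cells and 6627, 4465 and 1838 in HDG4 cells, 40.6-fold lower (−5.34 ± 0.72). FLS1, the flavonol synthase, read 180, 80.5 and 16.4 in AtHB8 cells and 2186, 1861 and 1263 in HDG4 cells, 27.2-fold lower (−4.76). In both flavonoid genes AtHB8 replicate 3 was the lowest of its group. Without it the differences were −4.32 for TT4 and −3.83 for FLS1, and without AtHB8 replicate 1 they were −6.15 and −5.52. The remaining members were ABCA10 and PUM10, at least 17-fold and 14.5-fold lower, MCT2 and XTH8, at least 8.79-fold and 6.72-fold lower, and YUC4, SEOR1 and BR6OX2, which are described with their pathways. Of the genes furthest in this direction, AGO5, PAN, ABCA10, XTH8, PUM10 and SEOR1 had their highest mean in HDG4 cells. The others had a higher mean elsewhere. TT4 averaged 12133 and FLS1 7260 in AtML1 cells, against 4310 and 1770 in HDG4 cells. TEL2 averaged 2131 in LAS cells against 719 in HDG4 cells.

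**Figure D2:**
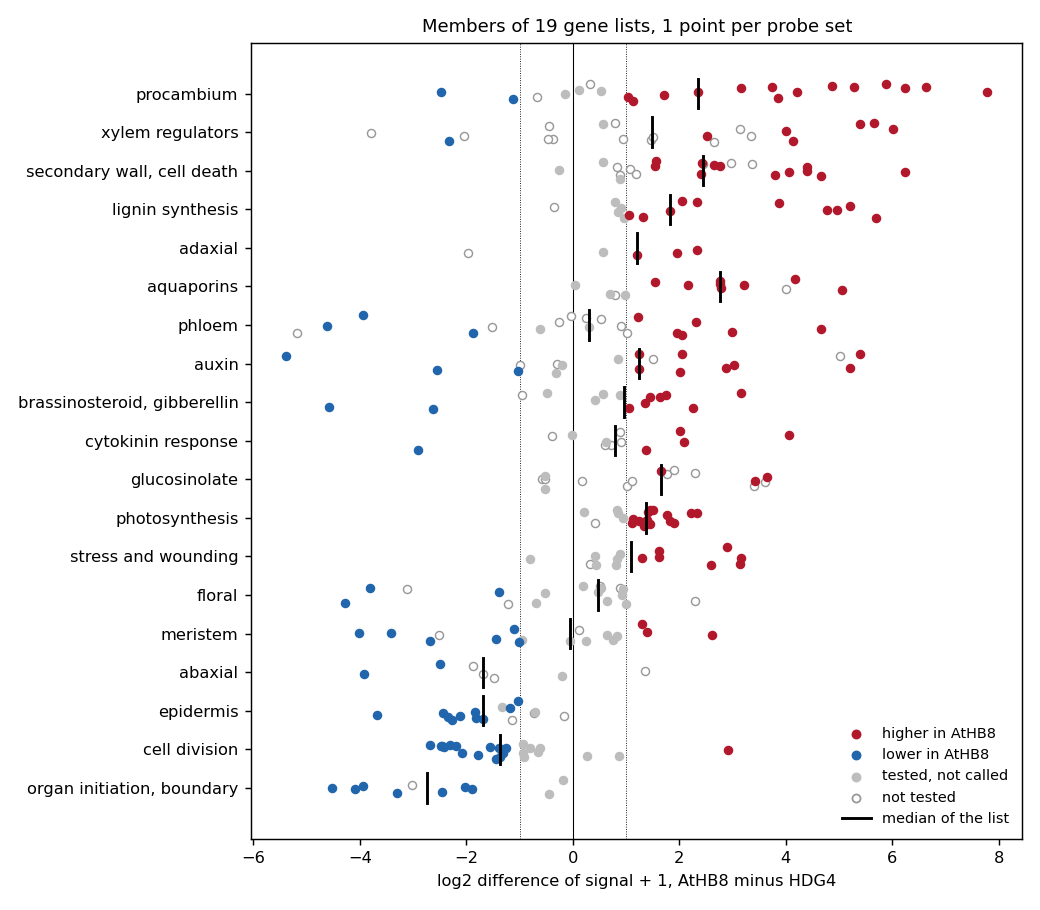
Difference in log2(signal + 1), AtHB8 minus HDG4, for the members of 19 gene lists, 1 point per gene with open points for genes not tested and a bar at the list median. Aquaporin, secondary wall and procambium medians lie to the right at 2.77, 2.44 and 2.35, and the organ boundary median to the left at −2.74.

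Of the VND factors, which switch on vessel fate, VND1, VND2, VND3, VND6 and VND7 were higher in AtHB8 cells, and VND4 and VND5 were not tested. VND2 (AT4G36160), a NAC factor that promotes vessel formation, had 2079, 1658 and 1783 in AtHB8 cells, against 25.8, 44.4 and 17.8 in HDG4 cells, 64.6-fold higher (6.01 ± 0.33, limma adjusted p = 2.21e-09). VND7 (AT1G71930), which can drive cells into vessel fate, read 622, 630 and 618 in AtHB8 cells, against 55.7, 2.99 and 7.34 in HDG4 cells, at least 15.9-fold higher (adjusted p = 3.96e-05). VND6, its counterpart for metaxylem, read 315, 265 and 484 in AtHB8 cells and 1.54, 37.5 and 4.71 in HDG4 cells, at least 11.4-fold higher. None of the 3 genes overlapped between the groups. VND1 read 607, 573 and 499 in AtHB8 cells and 6.38, 92.2 and 44.9 in HDG4 cells, 17.7-fold higher (4.14 ± 0.88), with 3.09 when HDG4 replicate 1 was left out and 4.92 without HDG4 replicate 3. VND3 was at least 5.70-fold higher and XND1, a NAC factor that restrains xylem differentiation, at least 4.40-fold higher.

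In all, 6 of 8 tested xylem regulators were higher, 1 lower and 1 not called, and all 8 entered the test through a single population, 7 of them through AtHB8. LBD18, a LOB-domain factor, was the lower one, at 33.8, 25.6 and 73.8 in AtHB8 cells and 238, 286 and 129 in HDG4 cells, at least 5.04-fold lower. VNI2, a repressor of VND7, was not called, with 151, 137 and 143 in AtHB8 cells and 102, 94.7 and 92.4 in HDG4 cells. The master regulators that act after the VND factors were too faint to be tested. MYB46 read 58.5, 70.9 and 124 in AtHB8 cells against 7.51, 9.81 and 4.46 in HDG4 cells, and MYB83 read 93.3, 59.2 and 71.7 against 11.8, 7.23 and 4.78. The fibre regulators SND1 and NST2 were absent on all 6 arrays. Over the 20 members with a probe set the median difference was 1.49, and it ranged from 0.97 to 2.07 when single arrays were left out.

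Procambial genes were among the larger differences. PXY (AT5G61480), the receptor kinase that keeps cambial cells dividing in order, had 6308, 6865 and 5685 in AtHB8 cells, against 128, 106 and 87.3 in HDG4 cells, 58.8-fold higher (5.88 ± 0.41, limma adjusted p = 2.15e-08). ACL5 (AT5G19530), a thermospermine synthase that holds back xylem maturation, had 7813, 6945 and 6332 in AtHB8 cells and 114, 92.3 and 74.0 in HDG4 cells, 75.4-fold higher. The bHLH factors that act with auxin in vascular cell division were high too. TMO5 (AT3G25710) read 2955, 3623 and 3395 in AtHB8 cells and 126, 115 and 98.4 in HDG4 cells, 29.2-fold higher (4.87 ± 0.23, adjusted p = 7.95e-10). T5L1, its close relative, read 3710, 3252 and 3355 in AtHB8 cells and 173, 167 and 22.6 in HDG4 cells, 38.9-fold higher (5.28), with a difference of 4.33 when HDG4 replicate 4 was left out. Their partner LHW, which is widely expressed, did not reach the 2-fold minimum (0.53). LOG3, a cytokinin-activating enzyme, was at least 17.3-fold higher (10-fold without HDG4 replicate 1) and TMO6, a Dof factor, 8.89-fold higher.

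**Figure D3:**
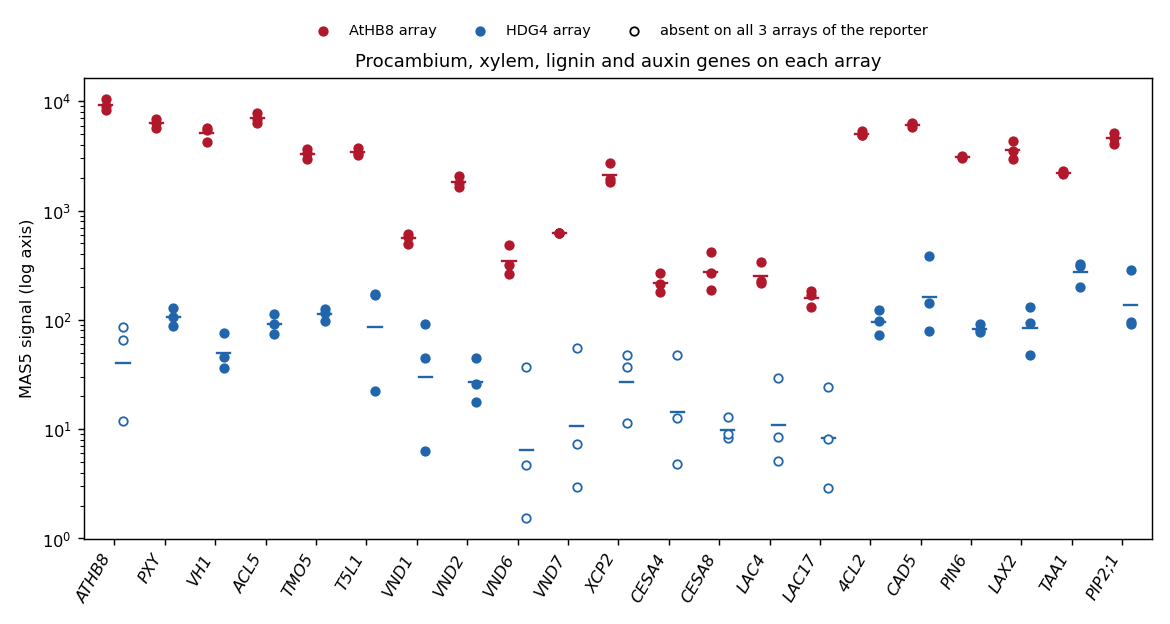
MAS5 signal on a log axis for 21 genes of xylem, wall, lignin and transport on the 3 AtHB8 arrays and the 3 HDG4 arrays, 1 point per array with a bar at the geometric mean and open points where the population was absent on all 3 arrays. The genes were chosen with earlier results known. AtHB8 and HDG4 points do not overlap for any of them, for example 5685 to 6865 against 87.3 to 128 for PXY.

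ATHB15 (AT1G52150), the HD-ZIP III factor CORONA, was measured in both populations at 8247, 10576 and 8040 in AtHB8 cells and 721, 688 and 460 in HDG4 cells, 14.5-fold higher (3.86 ± 0.21). MP (AT1G19850), the auxin response factor MONOPTEROS that turns ATHB8 on, differed far less. It read 5335, 7465 and 4892 in AtHB8 cells and 3424, 3587 and 1841 in HDG4 cells, 2.05-fold higher (1.04 ± 0.25). The MP call rested on single arrays: the difference fell under the 2-fold minimum, to 0.73 without HDG4 replicate 4 and 0.85 without AtHB8 replicate 2. Not every procambial gene went the same way. AHP6 (AT1G80100), a pseudo-phosphotransfer protein that blocks cytokinin signalling in protoxylem and around young organs, read 191, 286 and 215 in AtHB8 cells and 1817, 1059 and 1060 in HDG4 cells, 5.56-fold lower (−2.47 ± 0.37). ANT, a growth regulator of cambium and organ primordia, was 2.18-fold lower. Of 19 procambial genes tested, 14 were higher, 2 lower and 3 not called, and 11 of the 19 were present in both populations, 6 of them higher and 2 lower. The median over the 21 with a probe set was 2.35.

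The other HD-ZIP III factors, which also set the adaxial side of organs, differed by less than ATHB8 and ATHB15. PHB read 5633, 5996 and 5896 in AtHB8 cells and 1621, 1988 and 1075 in HDG4 cells, 3.86-fold higher. REV read 10974, 12182 and 10910 in AtHB8 cells and 4712, 5765 and 4410 in HDG4 cells, 2.30-fold higher. PHV was not called, at 0.56, and its groups overlapped. AS1, a MYB factor of leaf polarity, was 5.03-fold higher, and AS2 was absent on all 6 arrays. In this list 3 of 4 tested genes were higher and all 4 were present in both populations.

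Secondary wall genes were higher in AtHB8 cells where they were called. XCP2 (AT1G20850), a papain-type protease that clears the contents of dying vessels, read 1829, 1959 and 2711 in AtHB8 cells, against 36.8, 47.8 and 11.5 in HDG4 cells. It was absent in HDG4 cells and at least 54.6-fold higher (limma adjusted p = 2.1e-05). The cellulose synthases that build the secondary wall were all called. CESA8 read 270, 187 and 420 in AtHB8 cells and 8.32, 9.01 and 13 in HDG4 cells, at least 9.66-fold higher (adjusted p = 1.77e-07). CESA4 read 180, 211 and 267 in AtHB8 cells and 47.7, 4.83 and 12.7 in HDG4 cells, at least 5.81-fold higher. CESA7 read 118, 176 and 236 in AtHB8 cells and 62.7, 61.3 and 49.5 in HDG4 cells, 2.92-fold higher (1.55 ± 0.29). The groups did not overlap for any of the 3 subunits.

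The laccases LAC4 and LAC17, which couple lignin precursors in the wall, were at least 8.85-fold and 5.57-fold higher, and LAC11 was not called (0.57). Of the xylan genes, IRX15-L was at least 10.9-fold higher and PARVUS 5.27-fold higher, while IRX10 (−0.25) and IRX14 (0.88) were not called. IRX14 passed without HDG4 replicate 1 (1.07). BFN1, a nuclease of cell death, was at least 3.48-fold higher, but not called without HDG4 replicate 1 (1.68, adjusted p = 0.0589). The death genes XCP1, MC9 and RNS3 did not pass the filter. Of 15 genes tested, 12 were higher and 3 not called. Only 4 of the 15 were present in both populations, and 2 of those 4 were higher. The median over 22 genes was 2.44.

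Lignin precursor enzymes were higher in AtHB8 cells where they were called. The 4-coumarate ligases 4CL1 and 4CL2 activate the precursor acids. 4CL2 (AT3G21240) had 5303, 4948 and 4882 in AtHB8 cells, against 72.5, 123 and 98.5 in HDG4 cells, 52.1-fold higher (5.70 ± 0.22, limma adjusted p = 7.81e-11). 4CL1 had 4329, 4249 and 3369 in AtHB8 cells and 43.0, 189 and 241 in HDG4 cells, 31.3-fold higher (4.97), with 4.20 when HDG4 replicate 1 was left out. CAD5 (AT4G34230), an alcohol dehydrogenase of the final step, had 6275, 6239 and 5801 in AtHB8 cells and 79.9, 382 and 142 in HDG4 cells, 37.1-fold higher (5.21), with 5.82 without HDG4 replicate 3. OMT1, a methyltransferase of the syringyl branch, was 14.6-fold higher and PAL4, a phenylalanine ammonia-lyase, at least 24.5-fold higher.

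The other enzymes of the pathway had smaller differences or were not called. CCOAOMT1 was 5.05-fold, PAL2 4.16-fold and HCT 3.53-fold higher. C4H read 3150, 3099 and 3503 in AtHB8 cells and 1506, 1531 and 2545 in HDG4 cells (0.85), and it was not called, nor were PAL1 (0.91), CSE (0.80) and CAD4 (0.97). Leaving out HDG4 replicate 4 brought C4H past the threshold (1.10), HDG4 replicate 3 did so for PAL1 (1.07) and HDG4 replicate 1 for CAD4 (1.29). FAH1, the hydroxylase that opens the syringyl branch, was absent on all 6 arrays. In all 10 of 14 lignin genes were higher and none lower, and of the 10 present in both populations 7 were higher. The median over 15 genes was 1.82.

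Auxin transporters of the vascular strand stood out among the hormone genes. PIN6 (AT1G77110), an auxin efflux carrier, had 3067, 3049 and 3143 in AtHB8 cells, against 90.8, 77.6 and 80.2 in HDG4 cells, 36.9-fold higher (5.21 ± 0.35, limma adjusted p = 1.41e-08). LAX2 (AT2G21050), an influx carrier of veins, had 3520, 4308 and 2982 in AtHB8 cells and 131, 94.6 and 47.6 in HDG4 cells, 41.9-fold higher (5.39 ± 0.33). PIN3 was 7.37-fold higher. AUX1, an influx carrier that also acts in the meristem surface, differed by less. It read 5188, 5175 and 5000 in AtHB8 cells and 1670, 1219 and 943 in HDG4 cells, 4.12-fold higher.

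The genes of auxin synthesis split. TAA1 (AT1G70560), the aminotransferase of the first step, read 2215, 2311 and 2160 in AtHB8 cells and 199, 310 and 324 in HDG4 cells, 8.17-fold higher (3.03 ± 0.32). The YUCCA flavin monooxygenases of the second step were lower. YUC4 (AT5G11320) read 14.1, 44.3 and 6.91 in AtHB8 cells, against 606, 992 and 655 in HDG4 cells, 41.9-fold lower (−5.39 ± 0.64, adjusted p = 5.19e-06), and −6.07 without AtHB8 replicate 2. YUC1 read 52.0, 32.7 and 43.3 in AtHB8 cells and 208, 237 and 322 in HDG4 cells, at least 5.88-fold lower. All xylem arrays lay above the subepidermal ones for TAA1 and below them for both YUCCA genes. PID, the kinase that steers PIN proteins, was 2.05-fold lower (−1.04), but under the 2-fold minimum without HDG4 replicate 1 (−0.91). The response factors ARF3 (−0.20) and ARF4 (−0.31) were not called. Of 14 auxin genes tested, 8 were higher and 3 lower, and among the 8 present in both populations 4 were higher and 1 lower. The median over 18 was 1.25.

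Brassinosteroid synthesis was also divided between the populations. DWF4, the hydroxylase of an early step, read 2967, 3491 and 3389 in AtHB8 cells and 515, 714 and 856 in HDG4 cells, 4.81-fold higher. BR6OX2 (AT3G30180), the oxidase of the last step, read 6.43, 7.18 and 16.6 in AtHB8 cells and 242, 243 and 246 in HDG4 cells, at least 8.50-fold lower (−4.58 ± 0.41, limma adjusted p = 2.6e-07). ROT3, a hydroxylase between them, was at least 4.03-fold lower. The vascular receptors BRL3 and BRL1 were 2.75-fold and 2.07-fold higher, while BRI1, the main receptor, was not called (−0.48). The BRL1 call was lost without HDG4 replicate 3 (0.95) or AtHB8 replicate 2. BAS1, which inactivates brassinosteroids, was 2.57-fold higher.

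Gibberellin genes were higher where they were called. GA2OX2 (AT1G30040), which inactivates gibberellins, read 7383, 8439 and 6900 in AtHB8 cells and 702, 553 and 1553 in HDG4 cells, 8.92-fold higher (3.16 ± 0.35). RGA, a DELLA repressor, was 3.10-fold higher, GA20OX1, a synthesis enzyme, at least 3.36-fold higher, and GAI was not called (0.89), although it passed without HDG4 replicate 1 (1.12). Over both hormones 7 of 13 genes were higher and 2 lower. Of the 9 present in both populations 6 were higher and none lower, and the median over 14 was 0.97.

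The type-A response regulators, which are induced by cytokinin and damp its signal, did not move together. ARR9 read 966, 1374 and 997 in AtHB8 cells and 46.4, 51.9 and 114 in HDG4 cells, 16.6-fold higher (4.05 ± 0.34, limma adjusted p = 1.38e-07). ARR4 was 4.27-fold higher and ARR5 4.03-fold higher. ARR7 (AT1G19050), which is known from the shoot meristem, read 240, 220 and 215 in AtHB8 cells and 1680, 1391 and 2066 in HDG4 cells, 7.49-fold lower (−2.91 ± 0.28, adjusted p = 5.29e-07). The groups overlapped for neither ARR9 nor ARR7. The ARR5 call (2.01) was lost without HDG4 replicate 1 (1.55), AtHB8 replicate 1 (1.87) or AtHB8 replicate 3 (2.08). Of the receptors, AHK3 was 2.60-fold higher and AHK4 (−0.02) and AHK2 (0.63) were not called. In all 4 of 7 genes were higher and 1 lower, with 2 higher and 1 lower among the 5 present in both populations, and the median over 12 was 0.80.

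Meristem regulators fell into 3 groups. Some were lower in AtHB8 cells, among them the homeodomain partner PNF (AT2G27990), at 135, 186 and 144 in AtHB8 cells and 1675, 1640 and 1660 in HDG4 cells, 10.7-fold lower (−3.43 ± 0.21, limma adjusted p = 5.46e-09). ULT1 (AT4G28190), which limits meristem size, read 668, 617 and 679 in AtHB8 cells and 4120, 4797 and 3749 in HDG4 cells, 6.41-fold lower (−2.68 ± 0.18). The receptor kinase CLV1 was 2.74-fold lower and CLV2 2.15-fold lower, the second of these under the minimum without HDG4 replicate 1 (−0.91). CLV3, the peptide made by stem cells, was low, at 1.54, 3.43 and 16.8 in AtHB8 cells and 71.8, 128 and 88.1 in HDG4 cells, at least 3.27-fold lower. WUS, which maintains the stem cells, was not tested, at 14.7, 3.12 and 31.6 in AtHB8 cells and 85.3, 106 and 42.0 in HDG4 cells.

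STM (AT1G62360), the KNOX factor of the whole meristem, was present in both, at 2830, 3266 and 2901 in AtHB8 cells and 6296, 6226 and 5659 in HDG4 cells, 2.02-fold lower (−1.02 ± 0.14, limma adjusted p = 2.72e-05). It lay at the 2-fold minimum and crossed it when AtHB8 replicate 1 or 3 or HDG4 replicate 1 or 3 was left out, the smallest difference being −0.98 without AtHB8 replicate 1, with −0.99 without AtHB8 replicate 3 or HDG4 replicate 1. KNAT1 (AT4G08150), the KNOX factor BREVIPEDICELLUS of the stem, went the other way, at 2325, 2295 and 1674 in AtHB8 cells and 398, 294 and 336 in HDG4 cells, 6.09-fold higher (2.61 ± 0.17, adjusted p = 8.35e-09). BAM1, a receptor kinase related to CLV1, was 2.45-fold higher and HAM1, a GRAS factor, 2.63-fold higher. KNAT2 (0.25), KNAT6 (−0.96) and PNY (−0.06) were not called, though KNAT6 passed without AtHB8 replicate 3 (−1.01) or HDG4 replicate 4 (−1.08). Of 15 meristem genes tested, 3 were higher, 6 lower and 6 not called, and among the 11 present in both populations 3 were higher and 3 lower. The median over 17 was −0.06.

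**Figure D4:**
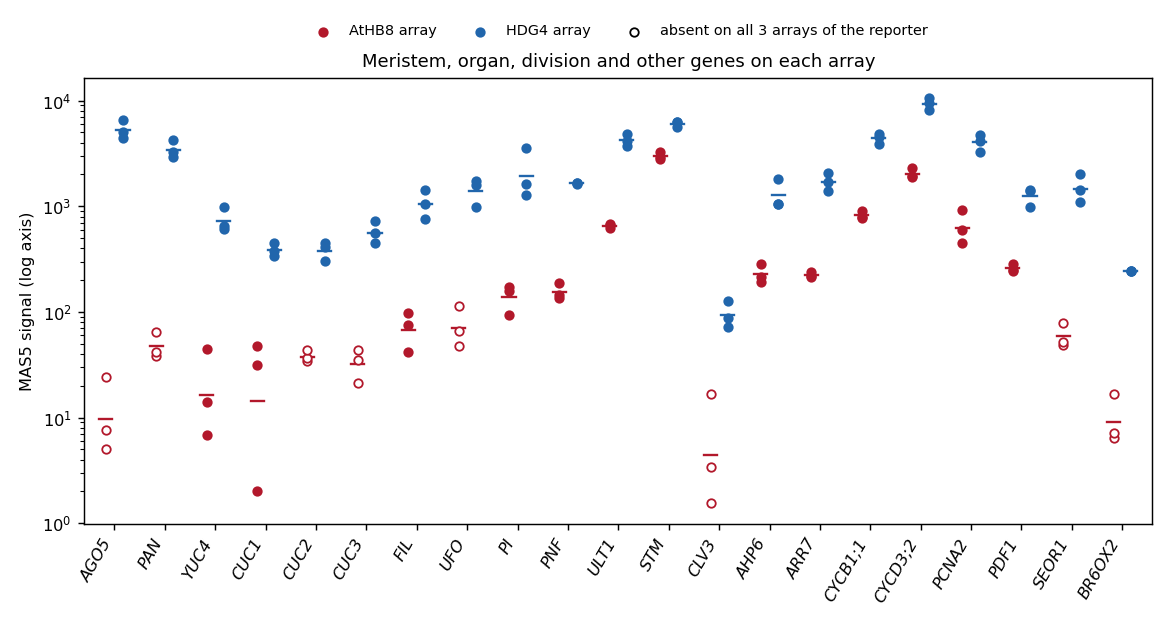
MAS5 signal on a log axis for 21 genes of meristem, boundary, flower, cell division and epidermis on the 3 AtHB8 arrays and the 3 HDG4 arrays, 1 point per array with a bar at the geometric mean and open points where the population was absent on all 3 arrays. All lie lower in AtHB8 cells, from 5.07, 7.61 and 24.4 against 5007, 6526 and 4433 for AGO5 to a 2.02-fold difference for STM.

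Boundary genes, which separate organs from the meristem, were lower in AtHB8 cells where they were called. CUC3 (AT1G76420) read 34.8, 44.0 and 21.5 in AtHB8 cells and 446, 718 and 556 in HDG4 cells, at least 14.5-fold lower (limma adjusted p = 8.57e-08). CUC2 read 34.1, 36.6 and 43.3 in AtHB8 cells and 301, 410 and 449 in HDG4 cells, at least 9.85-fold lower. CUC1 read 2.01, 31.5 and 47.7 in AtHB8 cells and 339, 454 and 379 in HDG4 cells, 23.1-fold lower (−4.53 ± 0.99), with −3.29 without AtHB8 replicate 1 and −5.30 without AtHB8 replicate 3. For the 3 CUC genes, NAC factors with overlapping roles, every AtHB8 array lay below every HDG4 array. LAS, a GRAS factor of axillary meristems, was at least 4.09-fold lower and ATH1, a BELL-type homeodomain factor, at least 5.61-fold lower. AIL7 and AIL6, relatives of ANT in organ initiation, were 5.53-fold and 3.74-fold lower. Of 9 genes tested, 7 were lower and none higher, and 6 of the 9 had entered through HDG4 alone. Of the 3 present in both, AIL6 was lower and AIL5 (−0.44) and BOP2 (−0.18) were not called. The median over 10 was −2.74.

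Abaxial and floral genes gave few calls. FIL (AT2G45190), a YABBY factor of the abaxial side, read 42.0, 97.3 and 75.5 in AtHB8 cells and 1054, 1441 and 755 in HDG4 cells, 15.3-fold lower (−3.93 ± 0.32). KAN2 was at least 3.03-fold lower, and ETT, the same gene as ARF3, was not called. It was the 1 gene of the 3 tested abaxial genes that was present in both populations. UFO (AT1G30950), an F-box protein that brings on petal and stamen identity, read 47.5, 65.8 and 114 in AtHB8 cells and 1580, 1744 and 984 in HDG4 cells, at least 19.4-fold lower (−4.28 ± 0.34, limma adjusted p = 8.52e-08). PI (AT5G20240), a MADS factor of petals and stamens, read 93.9, 174 and 160 in AtHB8 cells and 1634, 1272 and 3578 in HDG4 cells, 14.1-fold lower (−3.82 ± 0.32). SOC1, a promoter of flowering, was 2.62-fold lower.

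The meristem identity genes were not called. LFY read 1447, 1770 and 1598 in AtHB8 cells and 2535, 2538 and 2728 in HDG4 cells (−0.70), and AP1 (−0.52), TFL1 (0.47), SVP (0.64), FUL (0.94) and CAL (0.99) also missed the 2-fold minimum or the adjusted p. AP1 and CAL are the genes mutated in these plants, and their probe sets were still present in AtHB8 cells. FUL passed without AtHB8 replicate 1 (1.07) or HDG4 replicate 4 (1.05). CAL passed without AtHB8 replicate 1 (1.03), HDG4 replicate 1 (1.15) or HDG4 replicate 3 (1.25). Of 12 floral genes tested, 3 were lower and 9 not called, with 2 of 9 lower among those present in both populations, and the median over 17 was 0.47.

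Cell division genes were lower in AtHB8 cells. PCNA2, the sliding clamp of replication, read 917, 599 and 447 in AtHB8 cells and 3278, 4750 and 4175 in HDG4 cells, 6.41-fold lower (−2.68 ± 0.22, limma adjusted p = 1.13e-07). CYCB1;1 (AT4G37490), the mitotic cyclin, read 780, 800 and 895 in AtHB8 cells and 4543, 3909 and 4803 in HDG4 cells, 5.34-fold lower (−2.42 ± 0.21). CYCD3;2, a cyclin that keeps cells cycling, read 2328, 1915 and 1880 in AtHB8 cells and 8199, 10497 and 9445 in HDG4 cells, 4.59-fold lower (−2.20 ± 0.15). No AtHB8 array reached the level of an HDG4 array in these 3 genes, although all were present in both populations. MCM2 was 5.57-fold, CYCB1;3 5.52-fold and PCNA1 4.93-fold lower, and MCM7 and MCM3 were 4.26-fold and 3.46-fold lower. CYCD3;1 was not called (0.26), at 3559, 3405 and 2793 in AtHB8 cells and 2307, 3094 and 2751 in HDG4 cells. KRP2 (AT3G50630), an inhibitor of cyclin-dependent kinases, read 783, 498 and 577 in AtHB8 cells and 21.9, 119 and 187 in HDG4 cells, 7.57-fold higher (2.92 ± 0.52), with 2.02 when HDG4 replicate 1 was left out. All 23 genes of the list were tested. Of these, 14 were lower, 1 higher and 8 not called, 21 were present in both populations, and the median was −1.36 (−1.40 over the 21, against −0.16 over all 10762 present in both).

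Transport genes were higher in AtHB8 cells. PIP2;1 (AT3G53420), a plasma membrane aquaporin, read 4617, 5078 and 4085 in AtHB8 cells and 91.4, 96.4 and 287 in HDG4 cells, 33.3-fold higher (5.06 ± 0.44, limma adjusted p = 2.15e-07). PIP2;5 (AT3G54820) read 10832, 11201 and 10535 in AtHB8 cells and 921, 718 and 331 in HDG4 cells, 18.0-fold higher (4.17 ± 0.29). The vacuolar aquaporins TIP2;1, TIP1;2 and TIP1;1 were 9.29-fold, 6.86-fold and 4.47-fold higher, and PIP1;1 was 6.83-fold higher. PIP1;3 (0.69), PIP1;4 (0.04) and PIP1;5 (0.97) were not called, and PIP1;5 passed without AtHB8 replicate 1 (1.04). In all 8 of 11 aquaporins were higher, 5 of the 8 present in both populations among them. The median over 13 was 2.77, with 2.06 when HDG4 replicate 1 was left out.

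The glucosinolate transporters GTR1 and GTR2, which load defence compounds into the vasculature, were both higher. GTR1 (AT3G47960) read 6872, 7777 and 9765 in AtHB8 cells and 572, 833 and 900 in HDG4 cells, 10.7-fold higher (3.41 ± 0.25, limma adjusted p = 3.5e-08), and GTR2 was at least 12.5-fold higher. Of the synthesis genes, SUR1 and UGT74B1 were not called (both −0.52). CYP79B2, of the indole branch, was at least 2-fold higher, but that call was lost without HDG4 replicate 4 (0.82, adjusted p = 0.123) or AtHB8 replicate 3 (1.52, adjusted p = 0.0638). Of 15 genes only 5 were tested, 3 of them higher, and 1 of the 3 present in both populations.

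Photosynthesis genes were higher in AtHB8 cells throughout the called members. LHCB3, a light-harvesting protein, read 2134, 2333 and 2436 in AtHB8 cells and 293, 363 and 880 in HDG4 cells, 5.05-fold higher (2.34 ± 0.32, limma adjusted p = 1.79e-05). GAPA, of the Calvin cycle, read 4080, 3690 and 3840 in AtHB8 cells and 509, 731 and 1560 in HDG4 cells, 4.63-fold higher (2.21). In both genes HDG4 replicate 4 was the highest of its group, yet under every AtHB8 array. Of 19 genes tested, all present in both populations, 15 were higher, none lower and 4 not called, and the median over 20 was 1.37. Left-out arrays changed single calls here. LHCA1 (0.91), PSAF (0.95) and PSAD-1 (0.80) were lost without HDG4 replicate 1, PSBR (0.93) was lost without HDG4 replicate 3, and LHCA3 moved to 2.56, against 1.90, without HDG4 replicate 4. PSAK (1.32), PSAL (1.05) and PSBS (1.17) passed without HDG4 replicate 4, PSBS also without AtHB8 replicate 3 (1.08). The S17 and KAN1 arrays were higher still for LHCB3, at means of 3877 and 3683.

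Epidermal genes were faint in both populations beside the epidermis itself. PDF1 (AT2G42840), a proline-rich protein of the outer layer, read 248, 243 and 284 in AtHB8 cells and 1424, 985 and 1397 in HDG4 cells, 4.84-fold lower (−2.27 ± 0.33). ATML1, the master HD-ZIP IV factor of the epidermis, read 80.7, 120 and 90.7 in AtHB8 cells and 495, 301 and 201 in HDG4 cells, 3.21-fold lower. The AtML1 arrays averaged 18993 for PDF1 and 7336 for ATML1, far above both. ACR4, an epidermal receptor kinase, was 5.11-fold lower, and the wax and cutin genes LACS1, KCS1, HTH and FDH were lower too, by at least 5.19-fold for LACS1 and by 5.40-fold, 4.38-fold and 3.58-fold for the others. LTP1, a lipid transfer protein, was 3.53-fold lower. Of 12 genes tested 10 were lower and none higher, but 8 of the 12 had entered through HDG4 alone. The 4 present in both populations were all lower, and the part of epidermal RNA in the differences between the populations was not tested. The call for HDG2 was lost without AtHB8 replicate 1 (−0.67), and that for PDF2, whose groups overlapped (−1.03), without AtHB8 replicate 1 (−0.69), AtHB8 replicate 2 (−0.99) or HDG4 replicate 1 (−0.64). CER5 passed without HDG4 replicate 1 (−1.11) and KCS6 without AtHB8 replicate 2 (−1.69).

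Phloem genes went in both directions. SEOR1 (AT3G01680), whose product forms filaments in sieve elements, read 79.2, 48.8 and 52.4 in AtHB8 cells and 2008, 1430 and 1109 in HDG4 cells, at least 24.6-fold lower (−4.62 ± 0.71, limma adjusted p = 5.7e-05). SEOR2, its neighbour and partner, read 19, 43.4 and 87.0 in AtHB8 cells and 1272, 561 and 397 in HDG4 cells, at least 13.4-fold lower. Both HDG4 means, 1516 and 743, lay above the S17 phloem means of 711 and 377. CALS7, a callose synthase of sieve plates, was 3.67-fold lower, and APL, the phloem identity factor, was not tested at 4.27, 1.92 and 8.93 in AtHB8 cells and 246, 236 and 125 in HDG4 cells. SEOR1 and SEOR2 were thus measured in HDG4 cells, while the sugar transporter SWEET12 was absent on every HDG4 array, and the part of phloem RNA in the other differences was not tested.

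The other phloem genes tested were higher in AtHB8 cells or were not called. BAM3 (AT4G20270), a receptor kinase that acts on protophloem, read 4054, 5894 and 3982 in AtHB8 cells and 722, 975 and 268 in HDG4 cells, 7.95-fold higher (2.99 ± 0.54). SMXL5, which promotes phloem formation, read 780, 830 and 805 in AtHB8 cells and 135, 57.7 and 3.03 in HDG4 cells, 25.3-fold higher (4.66), with 3.2 without HDG4 replicate 4 and 5.71 without HDG4 replicate 1. CVP2 was 4.97-fold and OPS 3.87-fold higher. SUC2, the sucrose loader of companion cells, was not called (0.31), nor was AHA3 (−0.61). AKT2 and BZIP6 were called higher, but neither call held without HDG4 replicate 1 (1.58 with adjusted p = 0.0627, and 0.67), and BZIP6 was also lost without AtHB8 replicate 1 (1.03, adjusted p = 0.0596). Of 11 phloem genes tested, 6 were higher, 3 lower and 2 not called. In the 4 present in both populations 2 were higher. The median over 19 was 0.31.

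Genes induced by wounding and heat, which protoplasting can turn on, differed as well. HSP70 read 3920, 4807 and 5206 in AtHB8 cells and 529, 561 and 462 in HDG4 cells, 8.93-fold higher (3.16 ± 0.33). LOX3, an enzyme of jasmonate synthesis, read 8285, 7643 and 7754 in AtHB8 cells and 1494, 1117 and 1311 in HDG4 cells, 6.07-fold higher (2.60 ± 0.13, limma adjusted p = 1.47e-09). HSP101 was 8.84-fold, AOS 7.44-fold and JAZ1 3.06-fold higher. The touch genes TCH2 (−0.80), TCH3 (0.44) and TCH4 (0.81) and the WRKY factors WRKY33 (0.82) and WRKY40 (0.88) were not called, with WRKY40 passing, among the left-out arrays, without HDG4 replicate 4 (1.07). Of 13 genes tested, all present in both populations, 7 were higher and none lower, with a median over 14 of 1.09. These genes moved with the xylem population, and their part in the other differences was not tested.

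The same AtHB8 arrays set against phloem cells show how much of the xylem profile the vascular neighbour shared. This comparison uses the AtHB8 arrays again, so it is not independent of the one above. It covers the same tested probe sets, so genes present on all S17 arrays alone could not be counted as lower. SWEET11, at means of 19064 in S17 cells and 48.0 in AtHB8 cells, was left out this way. Against S17, 588 probe sets (4.53%) were higher and 420 (3.24%) lower in AtHB8 cells. MP averaged 5897 in AtHB8 cells and 578 ± 140 in S17 cells, a difference of 3.35 ± 0.25 (limma adjusted p = 4.02e-07), against 1.04 relative to HDG4. TMO5 averaged 3324 ± 340 in AtHB8 cells and 379 ± 55.6 in S17 cells (3.13 ± 0.23), and VND2 averaged 1840 ± 216 and 212 ± 22.1 (3.11 ± 0.33). DWF4 (3.57), LAX2 (2.97), PIP2;5 (2.75), PHB (2.09) and TAA1 (2.16) were also higher than in phloem. All SDs are over 3 arrays.

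Other genes that set xylem apart from subepidermis also had signal in phloem cells, and a missing call against S17 does not show equal levels. ATHB8 averaged 1714 ± 264 and PXY 1868 ± 217 in S17 cells, 2.44 and 1.75 log2 units under their AtHB8 levels. Both were called higher in AtHB8 cells than in S17 cells (limma adjusted p = 0.0109 and 0.00885). In HDG4 cells ATHB8 was absent and PXY 58.8-fold lower. The lignin enzymes 4CL1 (−0.47 ± 0.54), CAD5 (0.40 ± 0.59) and OMT1 (0.08 ± 0.38) were not called against S17, nor were GTR1 (−0.08 ± 0.25) and PIP2;1 (−0.88 ± 0.44). XCP2 was not called either (2.15, adjusted p = 0.106). RUL1, a receptor kinase of the cambium, was 13.4-fold higher than in HDG4 cells but 2.51 log2 units lower than in S17 cells. VNI2 was lower by 3.70 and the companion cell genes SUC2 and AHA3 by 3.51 and 4.1 in AtHB8 cells relative to S17.

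The HDG4 arrays were closest to those of LAS, with a median r of 0.920, and this comparison again reuses the arrays of the main one. HDG4 cells had 305 probe sets higher (2.35%) and 262 lower (2.02%) than LAS cells. The same tested probe sets were used, so genes present on all LAS arrays alone could not be counted as lower. PNF averaged 1659 ± 17.5 in HDG4 cells (n = 3) and 1772 ± 43.2 in LAS cells (n = 2), and PCNA2, STM, ULT1, ERL2 and YUC4 were likewise not called. The differences from LAS fell on other genes. AGO5 averaged 5322 in HDG4 cells and 174 ± 57.2 in LAS cells, a difference of 4.95 ± 0.65 (limma adjusted p = 0.000167), and FIL averaged 1083 ± 344 and 151 ± 35.5 (2.80 ± 0.36). UFO (3.94), AIL6 (1.53), PAN (1.46) and CYCB1;1 (1.06) were higher in HDG4 cells too. SEOR1 averaged 1516 ± 456 and BAM3 655 ± 359 in HDG4 cells, while both were absent on the LAS arrays, at 15.7 and 11.9. Lower in HDG4 cells were the LAS gene itself, at 184 ± 27.0 against 5973 ± 92.1 (−5.02 ± 0.50), and the epidermal ATML1 (−3.32) and PDF1 (−2.89). SVP averaged 2820 ± 583 in HDG4 cells and 11317 in LAS cells (−2.02), and AP1 (−2.18), TFL1 (−1.34), DWF4 (−1.68) and PIP2;5 (−2.43) were also lower.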

How the data were processed

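RNA of sorted protoplasts was hybridised to ATH1 arrays. The deposited intensity values are MAS5 signals, which the authors scaled per array, per the submitters' processing notes; the MAS5 version is not given in the sources used here. Detection calls came from the authors' averaged table, which also assigns 1 locus per probe set to 21021 of them. The test was limma (version 3.58.1, R 4.3.3) on log2 of signal + 1, over all 19 arrays with 1 mean per reporter (12 residual and 3.70 prior degrees of freedom). Probe sets had to be present on all arrays of AtHB8 or of HDG4, and calls needed a Benjamini-Hochberg adjusted p under 0.05 and a 2-fold difference. Named genes were the 15 largest called differences each way with groups that did not overlap, 1 locus and a symbol, and up to 8 called members per list, then others bearing on its role. Members and lists were chosen with earlier results of these data known. The fit was tested on simulated data. Alternatives were the filter, pseudocount, fold minimum, normalization, array set, array weights, variance trend, replicate block and single arrays left out. Genes without a probe set of their own, such as NST1 and WOX4, were not analysed here. An auxin list member is counted in its list but not reported here by name.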

Additional observations from a re-analysis of the deposited data

How the results depend on the processing

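No called difference between AtHB8 and HDG4 cells changed sign under any alternative run on the 251 tested genes of the lists and of the largest differences, 186 of which were called. The calls lost ranged up to 11 (without HDG4 replicate 1) and those gained up to 10 (with the replicate block). Genes described above whose call depends on 1 array are given there with their values. Some of their calls also changed with the processing. MP fell under the 2-fold minimum with quantile normalization (0.98), the replicate block (0.67) and array weights (0.94). BRL1 did so with a pseudocount of 16 (0.95), BAM1 with the replicate block (0.98) and PID with array weights (−0.99). With quantile normalization ARR5 was lost (limma adjusted p = 0.0553) and KNAT6 passed (−1.12). Among genes not described above, GAUT12 was called higher (1.55), but not without AtHB8 replicate 3 (1.36) or HDG4 replicate 4 (1.35). KNOLLE (−1.05), AUR1 (−1.07) and MCM5 (−1.09) passed as lower without AtHB8 replicate 1. Without the fold minimum 3347 probe sets were higher and 4118 lower, against 2206 and 2044, so higher calls were 44.8% of all calls and the larger side turned. With the filter set to presence on all arrays of both reporters, chosen after seeing the data, 1239 were higher and 1579 lower. Leaving out single arrays gave 2083 to 2249 higher and 1932 to 2134 lower, 881 to 953 called between AtHB8 and S17 (main count 1008), and 382 to 695 between HDG4 and LAS (main count 567). Quantile normalization gave a median difference of −0.11. AtHB8 and HDG4 share the replicate numbers 1 and 3 only, whose deviations from their group means correlated at 0.0871 and −0.0738. Pairs with unlike numbers ranged as widely, for example 0.111 for AtHB8 replicate 3 with HDG4 replicate 4. These values cannot decide whether arrays of the same number shared plants or a sort. With the replicate block 2238 were higher and 2054 lower, 1021 were called between AtHB8 and S17 and 480 between HDG4 and LAS. The number of arrays limits the precision: 3 per population, and 2 for LAS.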

Other observations

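The families in this section were chosen after their values had been seen, so they are given as values with no test of the family. Cytosolic ribosomal proteins and core histones were lower in AtHB8 cells. Of 131 ribosomal protein genes tested, 71 were lower and 1 higher, with a median difference of −1.06 over 148, and 70 of the 129 present in both populations were lower. Of 29 core histone genes 24 were lower and none higher, with a median of −1.38 over 36, and 22 of the 27 present in both were lower. Members of both families are close copies, and their probe sets may share signal. The ERECTA receptors were lower as a set of 3, ERL1 at 116, 140 and 188 in AtHB8 cells and 1776, 2994 and 2041 in HDG4 cells (15.2-fold), ERL2 at least 28.6-fold, and ER 2.06-fold. Of these 3 receptor genes, 2 were present in both populations. Flavonol synthesis was lower in 7 of 9 tested genes, all but 2 of the 9 tested through HDG4 alone, and its regulator MYB12 read 47.6, 35.5 and 91.0 in AtHB8 cells and 776, 727 and 626 in HDG4 cells. Argonaute genes divided: AGO10, which holds back miR165 and miR166, read 8323, 9382 and 8380 in AtHB8 cells and 2776, 3162 and 3553 in HDG4 cells (2.76-fold higher), AGO4 was 3.55-fold and AGO7 5.81-fold lower, and AGO1 was not called (0.21). Among the 7 Argonaute genes tested, 5 were present in both populations, 2 of them higher and 2 lower.

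HD-ZIP II factors, most of which respond to auxin or shade, were higher in 6 and lower in 2 of 8 tested genes, but only 3 of the 8 were present in both populations (2 higher and 1 lower). HAT14 and HAT1 were absent in HDG4 cells and at least 19.5-fold and 26.0-fold higher, and HAT22 read 1485, 946 and 1304 in AtHB8 cells and 146, 91.0 and 144 in HDG4 cells. HAT3 and HB4, which act in the adaxial side of organs, were 4.96-fold and 6.96-fold lower. Of 14 Aux/IAA repressors 7 were higher and 1 lower, with 3 higher and none lower among the 8 present in both populations. IAA2 read 2965, 2188 and 2512 in AtHB8 cells and 78.9, 48.7 and 55.2 in HDG4 cells (41.8-fold), and IAA7 was at least 2.24-fold lower. Jasmonate synthesis and JAZ repressor genes were higher in 15 of 18 tested (13 of the 16 present in both populations) and lower in none, for example JAZ6 at 6274, 5750 and 5553 in AtHB8 cells and 186, 538 and 859 in HDG4 cells (13.2-fold), and wound genes described above moved with them. Amino acid carriers were higher in 9 of 14 tested UMAMIT genes and in 5 of 6 AAP genes, AAP6 by 25.8-fold, though 11 of the 14 and 5 of the 6 were tested through AtHB8 alone. Of the 3 UMAMIT genes present in both populations 1 was higher, and the 1 such AAP gene was not called (−0.93). Among all tested probe sets 17% were higher and 15.8% lower. Of those tested through AtHB8 alone 71.1% were higher, and of those tested through HDG4 alone 55.1% were lower.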
